A study of Homo sapiens with 12 samples.

Results

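The mitosis genes are 51 genes that carry cells through division, picked by symbol out of a count table of 25369 genes and read in all 12 libraries by cell line and oxygen condition. The rule rests on function and holds no measured value, but the genes were chosen with earlier results of these data known. The libraries hold poly(A)-selected RNA of 3 established human cancer lines, namely RKO (colon carcinoma), A549 (lung carcinoma) and H460 (large cell lung carcinoma). Each line was kept for 24 h either in normoxia or in hypoxia at 1% O2. Each of the 6 groups had 2 libraries, so that every comparison of hypoxia with normoxia set 2 against 2. RKO and A549 grew in DMEM and H460 in RPMI, all with fetal bovine serum, so line and medium cannot be told apart where H460 is compared with the other lines. The labels name no transgene, edit or drug in any group, and each group stands for 1 line. Of 7 colon epithelium markers only CDX2 passed 1 CPM in all 4 RKO libraries, and only CDH17 did so in A549 (1.72 to 2.50 CPM). Of 6 markers of other cell types only COL1A1 did so, in A549 and in H460. Of 7 lung epithelium markers only NAPSA did so in A549 and none did in H460, so most defining markers of the tissues of origin did not reach that level, whereas 3 to 4 of 5 general epithelial markers did in each line.

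Mitosis is started by CDK1 bound to cyclin B, which the CDC25 phosphatases switch on and which PLK1 and the Aurora kinases support. Motor proteins build the spindle, kinetochores tie each chromosome to it, and the spindle checkpoint holds back the ubiquitin ligase APC/C and its activator CDC20 until every chromosome is attached, after which separase splits the sister chromatids. Transcripts of most of these genes are low early in the cell cycle and rise toward division, under promoter elements read by the MuvB complex, B-MYB, FOXM1 and NF-Y.

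Counted reads per library ran from 27350424 to 41757584. CPM are a gene's counts over the library total in the usual unit, scaled within a line by TMM, a factor that sets aside genes with extreme change, and RPKM are the same counts divided by gene length and scaled over all 12 libraries. Each adjusted p comes from edgeR's quasi-likelihood test with Benjamini-Hochberg adjustment unless another tool is named. The carbonic anhydrase gene CA9, a gene of the hypoxia response, rose in each line. Its log2 fold change was 4.45 ± 0.31 in RKO (adjusted p = 3.74e-05), 5.65 ± 0.37 in A549 (adjusted p = 0.000876) and 6.81 ± 0.28 in H460 (adjusted p = 3.43e-09). The 2 A549 replicates stood apart in these genes. Replicate 2 was below replicate 1 for 48 of the 51 genes in normoxia and for 50 of 51 in hypoxia, with median log2 gaps of -0.40 and -0.34, while the median gap over all genes tested was near 0. In H460 replicate 2 was below replicate 1 for 43 of 51 in normoxia and for only 8 of 51 in hypoxia, with smaller median gaps of -0.10 and 0.10. In RKO it was below for 36 of 51 in both conditions (median gaps -0.09 and -0.10). In the A549 libraries the 51 genes together took 0.808% and 0.617% of all counted reads in normoxia and 0.726% and 0.566% in hypoxia, so the replicates of a condition differed by more than the conditions did. The share was 0.654% and 0.666% against 0.665% and 0.667% in RKO, where the groups were nearly equal. It was 0.685% and 0.648% against 0.445% and 0.504% in H460, where both hypoxia libraries lay below both normoxia libraries. These shares of reads are not scaled by TMM. Summed in scaled CPM the 51 genes had 6132 and 5675 against 5140 and 5573 in H460, where the nearest libraries were close. The sums were 6855 and 6740 against 6667 and 6286 in RKO, and 7920 and 5915 against 7411 and 5916 in A549. In bulk RNA a smaller share of dividing cells and less of a transcript per dividing cell cannot be told apart.

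**Figure D1:**
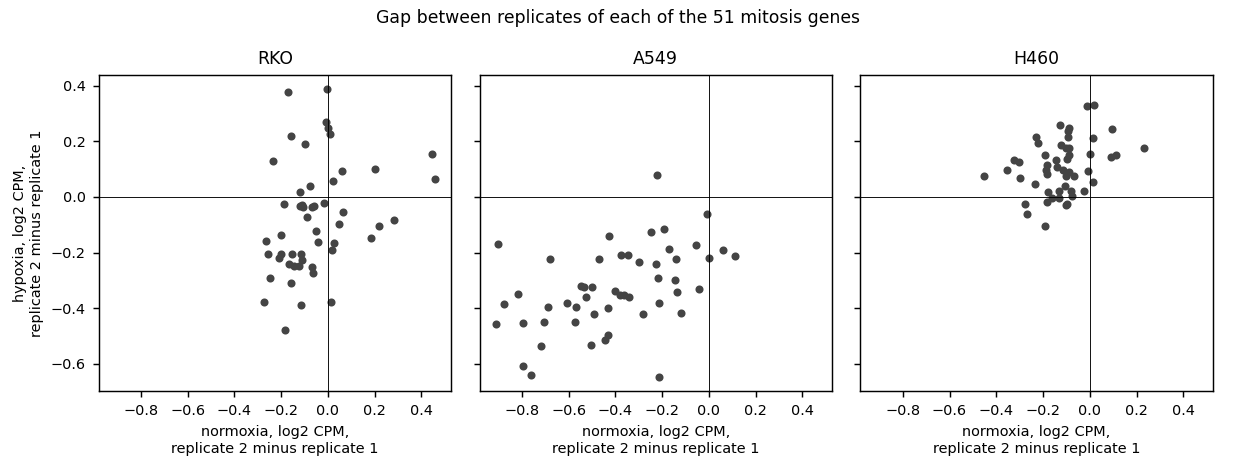
Each point is one of the 51 mitosis genes, and each axis gives log2 CPM of replicate 2 minus replicate 1, in normoxia (horizontal) and in hypoxia (vertical), for RKO, A549 and H460. In A549 48 genes lie left of 0 and 50 lie under 0, in RKO 36 and 36, and in H460 43 and 8.

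Promoter sequence played no part in the choice of the 51 genes. RefSeq promoter windows on GRCh38.p14, each running from 250 bases before to 50 bases after a transcription start, were at hand for 43 of the 51 genes (53 windows). AURKA, BIRC5, TPX2, BUB3, TTK, UBE2C, CENPM and RACGAP1 had no entry. The letters searched on both strands were TTTGAA for the CHR, the element bound by MuvB complexes, TTCGAA for its variant, CCAAT for the box bound by NF-Y, TTTGGCGC or TTTCGCGC for E2F sites, and ACGTG for the core of the hypoxia response element. The CHR was found in 33 of 53 windows (62.3%), against 15.2% of all 35116 windows in the table and 10.7% of windows of genes tested in any line. CCAAT stood in 73.6% of the windows of the 51 genes and in 34.6% of all windows. E2F letters stood in 7.55% against 1.15%, and the ACGTG core in 30.2% against 21.4%. In windows of genes tested in any line CCAAT stood in 34.1%, E2F letters in 1.63% and the ACGTG core in 24.9%. By gene the core was found for 34.9% of the 43 genes and for 31.8% of the tested genes, which is near the same level. E2F letters were found for only 3 of the 43 genes. For 49 DNA replication genes, read for comparison, the CHR was in 3.77%, CCAAT in 54.7% and E2F letters in 20.8% of windows. Motifs of different kinds overlapped in 1 of the 53 windows. These are matches of letters and not measured binding.

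The stretches printed next cover the 150 bases before the start, 5′ to 3′, with CHR (or its variant), CCAAT and E2F letters in capitals, and ATTGG is CCAAT read from the other strand. The first 6 are cyclin, CDC25, CDK1 and kinase-group genes that hold a CHR or its variant there, at chr15:59104996-59105145 (CCNB2, plus strand), chr10:60778328-60778477 (CDK1, plus), chr20:3796160-3796309 (CDC25B, plus), chr5:138331805-138331954 (CDC25C, minus), chr16:23678739-23678888 (PLK1, plus) and chr11:62123861-62124010 (INCENP, plus). SPC24 at chr19:11155783-11155932 (minus) and KIF18A at chr11:28108157-28108306 (minus) are added because their fold changes below stand out, so they were chosen after their values were seen.
CCNB2: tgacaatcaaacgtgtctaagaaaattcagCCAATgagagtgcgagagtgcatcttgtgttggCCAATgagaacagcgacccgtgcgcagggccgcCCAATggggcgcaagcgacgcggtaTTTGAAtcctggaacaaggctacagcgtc
CDK1: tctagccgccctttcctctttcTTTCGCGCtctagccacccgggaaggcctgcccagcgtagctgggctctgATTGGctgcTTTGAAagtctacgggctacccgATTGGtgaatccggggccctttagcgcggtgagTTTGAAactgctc
CDC25B: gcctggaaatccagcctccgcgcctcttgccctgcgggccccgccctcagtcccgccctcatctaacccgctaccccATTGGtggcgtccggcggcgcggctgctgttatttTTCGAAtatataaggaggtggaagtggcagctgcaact
CDC25C: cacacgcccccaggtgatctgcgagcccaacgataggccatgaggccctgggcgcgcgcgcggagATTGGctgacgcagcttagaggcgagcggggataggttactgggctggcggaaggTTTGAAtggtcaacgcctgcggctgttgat
PLK1: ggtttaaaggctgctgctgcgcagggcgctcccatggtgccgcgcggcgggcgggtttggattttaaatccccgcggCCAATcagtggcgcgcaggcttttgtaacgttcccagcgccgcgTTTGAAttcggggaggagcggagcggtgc
INCENP: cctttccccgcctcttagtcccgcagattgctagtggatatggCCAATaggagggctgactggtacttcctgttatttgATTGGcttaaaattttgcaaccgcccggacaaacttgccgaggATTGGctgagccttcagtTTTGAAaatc
SPC24: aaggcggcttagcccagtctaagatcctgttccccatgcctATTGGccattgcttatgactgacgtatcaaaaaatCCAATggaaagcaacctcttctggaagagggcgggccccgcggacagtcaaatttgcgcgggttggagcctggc
KIF18A: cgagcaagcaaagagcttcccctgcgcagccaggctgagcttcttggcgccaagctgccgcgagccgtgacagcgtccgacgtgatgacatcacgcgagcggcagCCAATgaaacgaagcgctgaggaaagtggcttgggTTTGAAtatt
The CHR, or in CDC25B its variant, sat toward the start in the first 6 and in KIF18A, with 1 or more CCAAT boxes before it, and SPC24 had 2 CCAAT boxes and no CHR in this stretch.

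All 51 genes passed the filter on low counts in every line, and the calls differed by line. In RKO 4 fell and 4 rose, where a gene was called at an adjusted p under 0.1 and a fold change over 1.5. Of all 12817 genes tested there, 15.1% were called lower and 18.8% higher, so the 7.84% of mitosis genes called in each direction was below the background. The 4 that fell in RKO were CCNB1, PLK1, CDC20 and AURKA, and the 4 that rose were SPC24, CENPI, CDC25C and NUSAP1. In A549 0 of 51 fell and 0 rose, beside 0.456% and 2.22% of all genes. At an unadjusted p under 0.05 there were 1 lower (CDC25B) and 1 higher (ANLN), beside 6.83% and 9.75% of all genes. DESeq2 called 0 lower and 1 higher (ANLN) in A549, beside 1.85% and 4.27%. With the replicate number as a block, 0 were lower and 1 (ANLN) higher, beside 5.07% and 8.34% of all genes, so the block raised the calls over all genes far more than those among the 51. In H460 13 fell, beside 27.3% of all genes, and 3 rose, beside 24.6%. The H460 genes that fell were CENPM, CENPK, SPC25, SPC24, NDC80, MAD2L1, BUB1B, NUSAP1, HMMR, KIF4A, ESPL1, AURKB and ASPM, and KIF18A, BUB1 and UBE2C rose.

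The share that fell in H460, 25.5%, was close to its background, whereas the share that rose, 5.88%, was well under it. Without a minimum fold change 30 genes were lower and 11 higher in H460, beside 39.7% and 38.0% of all genes, and 9 were lower and 7 higher in RKO, beside 22.9% and 24.0%. The median log2 fold change over the 51 genes was -0.05 in RKO (0.01 over all genes tested, and 0.04 for the 51 genes when scaled by library size alone), -0.09 in A549 (-0.01) and -0.29 in H460 (-0.04). Leaving out A549 normoxia replicate 1 or hypoxia replicate 2 turned the A549 median to 0.09 or 0.07, and leaving out normoxia replicate 2 or hypoxia replicate 1 took it to -0.28 in each case. The RKO median ran from -0.11 to 2.5e-05 when 1 library of that line was left out. With A549 hypoxia replicate 1 left out 2 genes fell in A549 (CDC20 and CENPM), beside 5.34% of all genes, and with A549 normoxia replicate 1 left out 2 rose there (ANLN and KIF20A), beside 2.11%. The H460 median ran from -0.40 to -0.20 when 1 library of that line was left out. Scaling by library size alone moved the median of all H460 genes by -0.35, and with it 29 mitosis genes were called lower and 0 higher, beside 40.9% and 14.7% of all genes. Relative to the median of all genes the 51 genes stood at -0.26 in H460 under either scaling. That match was fixed in advance, because a change of scaling shifts all genes nearly alike, so it does not test the choice of scaling. H460 changes are stated relative to the TMM reference.

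**Figure D2:**
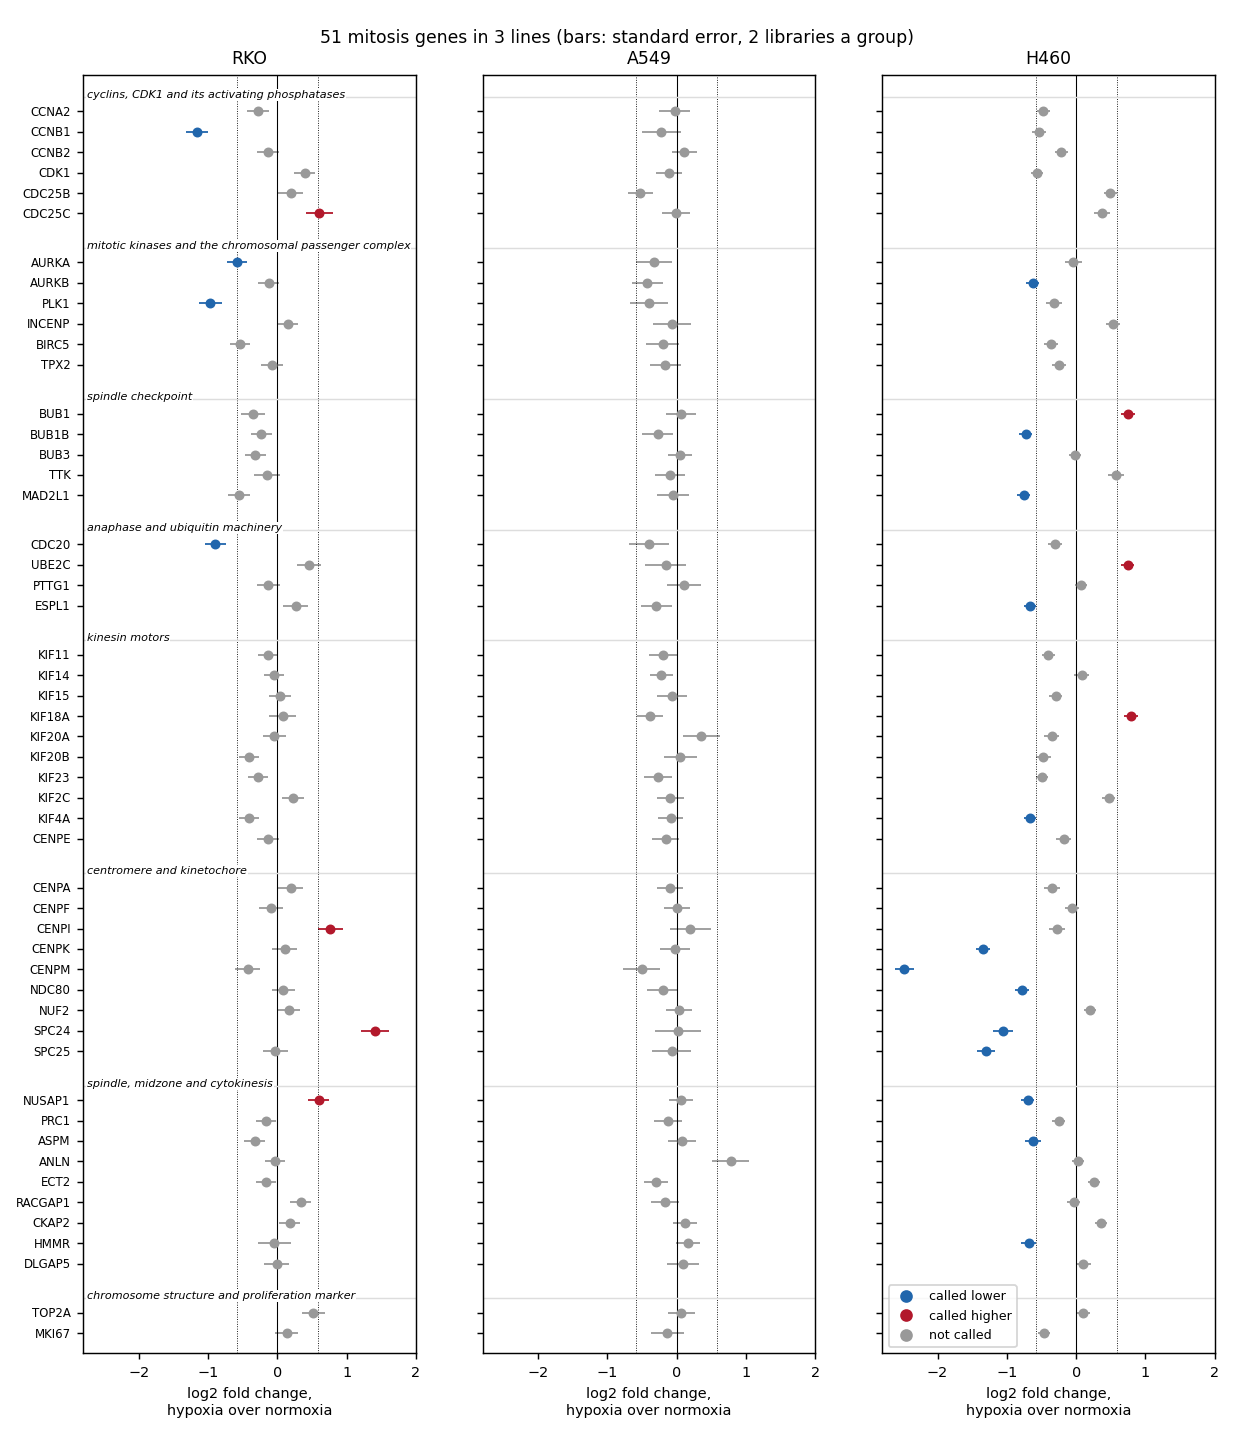
Log2 fold change of hypoxia over normoxia for each of the 51 genes, grouped by role, in RKO, A549 and H460, with bars for the standard error and dotted lines at a fold change of 1.5. Blue points were called lower (4 in RKO, 0 in A549, 13 in H460) and red points higher (4, 0 and 3).

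Among the cyclins, CDK1 and the CDC25 phosphatases, the calls were CCNB1 lower and CDC25C higher, both in RKO. CCNB1 (chr5:68462837-68474070, GRCh37), the cyclin B that activates CDK1, was at 251 and 213 CPM in normoxia and 99.03 and 109 CPM in hypoxia in RKO. Both hypoxia libraries were under 1 in 2 of the mean normoxia level (log2 fold change -1.16 ± 0.16, adjusted p = 0.000463). It was at 168 and 147 CPM against 103 and 115 CPM in H460, normoxia first, with groups that did not overlap (log2 fold change -0.53 ± 0.10, adjusted p = 0.000377). That fold is under the minimum, and without normoxia replicate 2 it passed (-0.67, adjusted p = 0.000119), as it did without hypoxia replicate 2 (-0.59, adjusted p = 5.38e-05). In A549 the groups overlapped, at 286 and 164 CPM against 234 and 153 CPM (log2 fold change -0.22 ± 0.29, adjusted p = 0.743), and in both conditions replicate 1 was the higher library. CCNA2, the cyclin A of S phase and early mitosis, was at 139 and 127 CPM against 119.5 and 100.3 CPM in RKO (log2 fold change -0.28 ± 0.16, adjusted p = 0.186). Its H460 values were 70.01 and 65.2 CPM against 47.3 and 49.97 CPM (log2 fold change -0.47 ± 0.09, adjusted p = 0.000503). Its A549 values, 82.5 and 56.4 CPM against 75.9 and 60.2 CPM, overlapped (log2 fold change -0.03 ± 0.22, adjusted p = 0.962). CCNB2, a second cyclin B, had log2 fold changes of -0.13, 0.11 and -0.21 in RKO, A549 and H460 and was called in no line.

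CDK1 (chr10:62538089-62554610), the kinase at the center of the switch, stood higher in hypoxia in RKO and lower in H460. Its values were 128 and 124 CPM in normoxia and 173 and 159 CPM in hypoxia in RKO (log2 fold change 0.39 ± 0.15, adjusted p = 0.0557). In H460 they were 172 and 159 CPM against 108 and 115 CPM (log2 fold change -0.57 ± 0.09, adjusted p = 0.000114). Neither passed the fold minimum and neither line's groups overlapped, while the A549 values, 126 and 97.02 CPM against 111 and 95.8 CPM, did overlap (log2 fold change -0.11 ± 0.19, adjusted p = 0.812). Leaving out H460 normoxia replicate 2 (-0.66, adjusted p = 8.93e-05) or hypoxia replicate 2 (-0.59, adjusted p = 4.85e-05) took CDK1 past the fold minimum there. CDC25B, a phosphatase that removes inhibitory phosphates from CDK1, was at 409 and 350.2 CPM in normoxia and 257 and 271 CPM in hypoxia in A549, the lowest fold change of the 51 genes in that line (log2 fold change -0.52 ± 0.18, adjusted p = 0.204). The A549 groups did not overlap, but the adjusted p missed the threshold. In H460 it stood higher in hypoxia, within the fold minimum, at 202 and 177 CPM against 276 and 257 CPM (log2 fold change 0.49 ± 0.10, adjusted p = 0.000661). In RKO its values of 58.04 and 80.5 CPM against 77.2 and 80.9 CPM overlapped (log2 fold change 0.19 ± 0.18, adjusted p = 0.425). CDC25C, another phosphatase of the family, rose in RKO, where all 4 values were low, at 14.6 and 13.3 CPM against 21.1 and 21.4 CPM (log2 fold change 0.61 ± 0.19, adjusted p = 0.0271). That call was lost without normoxia replicate 1 (0.68, adjusted p = 0.103) and without normoxia replicate 2 (0.54, adjusted p = 0.186). CDC25C stood at 15.7 and 14.5 CPM against 19.8 and 19.3 CPM in H460 (log2 fold change 0.37 ± 0.11, adjusted p = 0.0115). CDC25C in A549 was at 20.8 and 20.7 CPM against 21.1 and 20.2 CPM (log2 fold change -0.01 ± 0.20, adjusted p = 0.987).

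Of the 6 kinases and chromosomal passenger genes, PLK1 and AURKA fell in RKO and AURKB in H460. PLK1 (chr16:23690201-23701688), which drives entry into mitosis and spindle assembly, was at 134 and 135 CPM in normoxia and 78.1 and 59.6 CPM in hypoxia in RKO, where both hypoxia libraries lay well below the normoxia libraries (log2 fold change -0.97 ± 0.17, adjusted p = 0.00149). In H460 it was at 98.4 and 76.5 CPM against 67.4 and 72.2 CPM (log2 fold change -0.32 ± 0.11, adjusted p = 0.0236), without overlap and under the fold minimum. In A549 it was at 174 and 99.4 CPM against 119.8 and 87.01 CPM, with overlap (log2 fold change -0.40 ± 0.27, adjusted p = 0.493). AURKA, the Aurora kinase of spindle poles, was at 114 and 105 CPM against 73.8 and 72.2 CPM in RKO (log2 fold change -0.59 ± 0.15, adjusted p = 0.00987). The fold was only just past 1.5, and 10 of 13 other settings brought it under that minimum, among them the fits without normoxia replicate 1 (-0.52, adjusted p = 0.069), hypoxia replicate 1 (-0.56, adjusted p = 0.0355) and hypoxia replicate 2 (-0.55, adjusted p = 0.0237). AURKA was at 184 and 112 CPM against 136 and 99.3 CPM in A549 (log2 fold change -0.33 ± 0.25, adjusted p = 0.555). In H460 AURKA was at 146 and 106 CPM against 119 and 126 CPM (log2 fold change -0.04 ± 0.13, adjusted p = 0.788), and the groups overlapped in both of these lines. TPX2, which activates AURKA on the spindle, had fold changes of -0.08, -0.17 and -0.25 in RKO, A549 and H460 and was not called.

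AURKB, INCENP and BIRC5 belong to the chromosomal passenger complex, which corrects faulty attachments. AURKB, its kinase, was at 80.3 and 71.6 CPM in normoxia and 49.1 and 49.02 CPM in hypoxia in H460 (log2 fold change -0.63 ± 0.09, adjusted p = 6.88e-05). Hypoxia lay under normoxia in both libraries, and without normoxia replicate 1 the fold dropped under the minimum (-0.58, adjusted p = 0.000321). In RKO AURKB was at 101 and 115 CPM against 104 and 93.7 CPM (log2 fold change -0.13 ± 0.15, adjusted p = 0.543). In A549 AURKB was at 136 and 95.9 CPM against 99.1 and 73.5 CPM (log2 fold change -0.42 ± 0.22, adjusted p = 0.379), with overlap in each line. BIRC5 (survivin), a subunit that guides the complex to centromeres, was at 128 and 119.7 CPM against 87.1 and 82.8 CPM in RKO (log2 fold change -0.54 ± 0.15, adjusted p = 0.0139), and it passed the fold minimum only without normoxia replicate 2 (-0.59, adjusted p = 0.0333). It was at 101 and 82.05 CPM against 69.5 and 72.99 CPM in H460 (log2 fold change -0.36 ± 0.11, adjusted p = 0.00847). BIRC5 in A549 was at 156 and 109 CPM against 136 and 93.5 CPM (log2 fold change -0.20 ± 0.24, adjusted p = 0.71). So both conditions were apart in RKO and H460 and overlapped in A549. INCENP, the scaffold of the complex, stood higher in hypoxia in H460 with a log2 fold change of 0.53 (adjusted p = 0.000772), and it passed the minimum without normoxia replicate 1 (0.64, adjusted p = 0.000266) or hypoxia replicate 2 (0.59, adjusted p = 3.42e-05). Its log2 fold changes in RKO and A549 were 0.15 and -0.07.

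**Figure D3:**
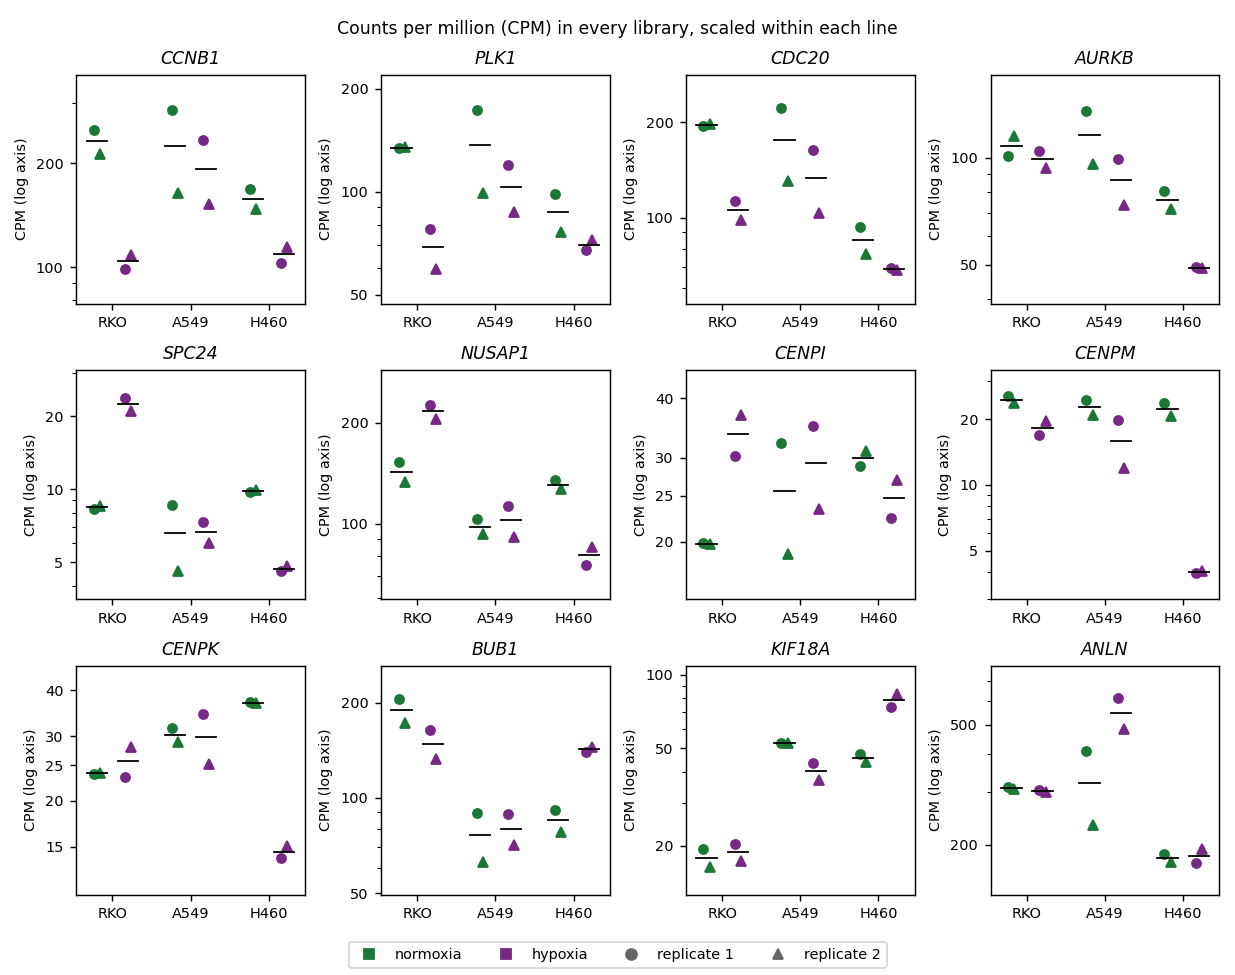
CPM of 12 mitosis genes in every library on log axes, with normoxia in green, hypoxia in purple, circles for replicate 1, triangles for replicate 2 and bars for group means, scaled within each line so that levels are not to be compared between lines. CCNB1, PLK1 and CDC20 show hypoxia below normoxia in RKO, CENPM and CENPK in H460, and SPC24 shows hypoxia above normoxia in RKO and below it in H460.

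In the spindle checkpoint group H460 split, since MAD2L1 and BUB1B fell and BUB1 rose, and these were the only calls among the 5 genes. MAD2L1, the checkpoint protein that inhibits CDC20, was at 54.7 and 49.2 CPM in normoxia and 29.1 and 32.1 CPM in hypoxia in H460 (log2 fold change -0.76 ± 0.10, adjusted p = 2.7e-05). In RKO it was at 158 and 131 CPM against 104 and 93.3 CPM (log2 fold change -0.55 ± 0.16, adjusted p = 0.0199), apart between conditions but under the fold minimum. It passed that minimum without normoxia replicate 2 (-0.68, adjusted p = 0.0147) or hypoxia replicate 1 (-0.59, adjusted p = 0.0387). The A549 values of 51.4 and 37.5 CPM against 48.99 and 36.6 CPM overlapped (log2 fold change -0.05 ± 0.23, adjusted p = 0.931). BUB1, the checkpoint kinase that marks centromeres, rose in H460, from 91.9 and 77.9 CPM to 140.0 and 145 CPM (log2 fold change 0.75 ± 0.10, adjusted p = 2.52e-05). Both hypoxia libraries exceeded both normoxia libraries there. The opposite order held in RKO, at 206 and 173 CPM against 163 and 133 CPM, without passing the test (log2 fold change -0.35 ± 0.17, adjusted p = 0.121). BUB1 in A549 read 89.97 and 62.99 CPM against 89.2 and 70.9 CPM (log2 fold change 0.07 ± 0.22, adjusted p = 0.907). BUB3, which recruits BUB1 to kinetochores, was the steadiest of the group in H460, at 251 and 229 CPM against 238 and 237 CPM (log2 fold change -0.02 ± 0.09, adjusted p = 0.865). It read 384 and 355 CPM against 318 and 276 CPM in RKO (log2 fold change -0.32 ± 0.16, adjusted p = 0.136). BUB3 in A549 read 197 and 172 CPM against 198 and 183 CPM (log2 fold change 0.05 ± 0.17, adjusted p = 0.914), and only the RKO groups were apart.

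BUB1B, which encodes the checkpoint protein BUBR1 and shares bases on its strand with the much lower PAK6, fell in H460 (log2 fold change -0.73 ± 0.10, adjusted p = 3.02e-05). TTK, the kinase that starts checkpoint signalling, was under the fold minimum in H460 (log2 fold change 0.57 ± 0.11, adjusted p = 0.000687). It was past it without normoxia replicate 1 (0.70, adjusted p = 0.000171) or hypoxia replicate 1 (0.65, adjusted p = 2.44e-06), under RLE scaling (0.60, adjusted p = 0.000455) and in DESeq2.

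The anaphase genes gave 1 call in RKO and 2 opposite calls in H460. CDC20 (chr1:43824626-43828873), the activator that turns APC/C on securin and cyclin B, was at 195 and 197 CPM in normoxia and 113 and 98.6 CPM in hypoxia in RKO (log2 fold change -0.89 ± 0.15, adjusted p = 0.00138). The normoxia libraries nearly coincided and hypoxia was close to 1 in 2 of their level. In H460 CDC20 was at 93.4 and 76.7 CPM against 69.7 and 68.3 CPM (log2 fold change -0.30 ± 0.10, adjusted p = 0.0191). The A549 values, 222 and 131 CPM against 163 and 104 CPM, overlapped (log2 fold change -0.40 ± 0.28, adjusted p = 0.521). Without hypoxia replicate 1 CDC20 was called lower there (-0.77, adjusted p = 0.0499). UBE2C, the ubiquitin-conjugating enzyme of APC/C, rose in H460 from 69.3 and 60.9 CPM to 106 and 112 CPM (log2 fold change 0.74 ± 0.09, adjusted p = 1.85e-05). In RKO it also stood higher in hypoxia, within the fold minimum, at 92.1 and 84.8 CPM against 138 and 105 CPM (log2 fold change 0.46 ± 0.17, adjusted p = 0.0523), and passed it without hypoxia replicate 2 (0.66, adjusted p = 0.00513). UBE2C in A549 read 101 and 52.6 CPM against 79.6 and 57.4 CPM with overlap (log2 fold change -0.16 ± 0.29, adjusted p = 0.823). PTTG1 (securin), which APC/C destroys to free separase, was at 111 and 92.97 CPM against 100.4 and 86.7 CPM in RKO, 104 and 63.99 CPM against 103 and 77.9 CPM in A549 and 98.3 and 89.6 CPM against 97.3 and 98.9 CPM in H460. Its fold changes were -0.13 ± 0.16, 0.11 ± 0.25 and 0.06 ± 0.09, with overlap in each line. ESPL1, separase itself, fell in H460 (log2 fold change -0.66 ± 0.09, adjusted p = 2.43e-05) and had a fold of 0.27 in RKO and -0.30 in A549.

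Of the 10 kinesin genes KIF4A fell and KIF18A rose in H460, which were the only calls of the group. KIF18A (chr11:28042163-28129746), which shortens kinetochore microtubules and steadies chromosomes at the spindle middle, was at 47.2 and 43.9 CPM in normoxia and 73.7 and 83.5 CPM in hypoxia in H460, the highest fold of the 51 genes in that line (log2 fold change 0.79 ± 0.10, adjusted p = 1.46e-05). In A549 it was at 52.5 and 52.6 CPM against 43.5 and 37.1 CPM, lower in hypoxia without passing the test (log2 fold change -0.38 ± 0.19, adjusted p = 0.341). It was low in RKO, at 19.3 and 16.4 CPM against 20.4 and 17.3 CPM (log2 fold change 0.08 ± 0.20, adjusted p = 0.793), so the groups were apart in H460 and A549 and overlapped in RKO. Under scaling by library size KIF18A, BUB1 and UBE2C stayed above 0 in H460 at 0.44, 0.39 and 0.39 but were not called. KIF11, the motor that pushes spindle poles apart, was at 133 and 122 CPM against 89.6 and 102 CPM in H460 (log2 fold change -0.41 ± 0.09, adjusted p = 0.00223). It read 174 and 165 CPM against 152 and 157 CPM in RKO (log2 fold change -0.13 ± 0.15, adjusted p = 0.518). KIF11 in A549 read 151 and 117 CPM against 131 and 102 CPM (log2 fold change -0.20 ± 0.20, adjusted p = 0.661). KIF20A, a motor of the midzone and cytokinesis, was at 96.2 and 76.5 CPM against 64.2 and 70.5 CPM in H460 (log2 fold change -0.36 ± 0.11, adjusted p = 0.0128). In RKO KIF20A was at 47.1 and 42.2 CPM against 46.4 and 40.1 CPM (log2 fold change -0.05 ± 0.17, adjusted p = 0.856). The A549 values of 129 and 67.9 CPM against 133 and 118 CPM had the widest spread (log2 fold change 0.36 ± 0.27, adjusted p = 0.548). Groups were apart in H460 alone, and without A549 normoxia replicate 1 KIF20A was called higher (0.89, adjusted p = 0.0797).

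KIF4A, a chromokinesin that sits on chromosome arms, fell in H460 (log2 fold change -0.66 ± 0.09, adjusted p = 3.82e-05), and its fold went under the minimum without hypoxia replicate 1 (-0.57, adjusted p = 3.52e-05). KIF23, a motor of the central spindle, had a fold of -0.50 in H460, KIF20B, which works in cytokinesis, -0.47, and KIF15, which backs up KIF11, -0.29, each past the adjusted p and within the fold minimum. KIF2C, which dismantles microtubules at centromeres, stood higher in hypoxia, also within the minimum (0.47 ± 0.09). KIF14, which acts in cytokinesis, and CENPE, the motor that brings chromosomes to the plate, passed neither limit in any line, with log2 fold changes between -0.22 and 0.08 for KIF14 and between -0.18 and -0.14 for CENPE. The RKO kinesin fold changes ran from -0.41 for KIF20B to 0.23 for KIF2C.

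The centromere and kinetochore genes held the lowest H460 fold changes of the 51, with a median of -0.78. There 5 of 9 were called lower (55.6%, beside 27.3% of all genes). In RKO 2 of the 9, CENPI and SPC24, rose, and that share (22.2%) was near the 18.8% of all genes. CENPM (chr22:42334741-42343148), a subunit of the inner kinetochore complex, was at 23.8 and 20.8 CPM in normoxia and 3.94 and 4.02 CPM in hypoxia in H460, so less than 1 in 5 of the normoxia level remained in both hypoxia libraries (log2 fold change -2.48 ± 0.14, adjusted p = 3.06e-08). It was at 25.5 and 23.7 CPM against 16.9 and 19.6 CPM in RKO (log2 fold change -0.43 ± 0.18, adjusted p = 0.0894). In A549 it was at 24.5 and 20.9 CPM against 19.9 and 11.99 CPM (log2 fold change -0.51 ± 0.27, adjusted p = 0.384), and called lower without hypoxia replicate 1 (-0.92, adjusted p = 0.0628). Hypoxia lay below normoxia in all 3 lines, by the largest margin in H460. CENPK, another inner kinetochore subunit, was at 37.1 and 36.9 CPM against 13.98 and 15.04 CPM in H460 (log2 fold change -1.35 ± 0.10, adjusted p = 3.09e-07). It was much closer between conditions in RKO, at 23.7 and 23.8 CPM against 23.3 and 28.00 CPM (log2 fold change 0.11 ± 0.18, adjusted p = 0.665). In A549 CENPK was at 31.6 and 28.9 CPM against 34.4 and 25.2 CPM (log2 fold change -0.02 ± 0.22, adjusted p = 0.971). CENPI, of the same inner complex, rose in RKO from 19.9 and 19.8 CPM to 30.3 and 36.9 CPM (log2 fold change 0.76 ± 0.18, adjusted p = 0.00752). Its A549 values of 32.3 and 18.8 CPM against 34.9 and 23.5 CPM overlapped (log2 fold change 0.19 ± 0.29, adjusted p = 0.786). Its H460 values of 28.9 and 31.00 CPM against 22.4 and 26.9 CPM were lower in hypoxia within the fold minimum (log2 fold change -0.28 ± 0.11, adjusted p = 0.0423).

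SPC24 and SPC25 form, with NDC80 and NUF2, the outer complex that grips microtubules, and their transcripts gave different calls. SPC24 (chr19:11257831-11266484) was at 8.33 and 8.51 CPM in normoxia and 23.8 and 20.98 CPM in hypoxia in RKO, the highest fold of the 51 genes there (log2 fold change 1.41 ± 0.20, adjusted p = 0.00059). It fell in H460, where it was at 9.78 and 9.89 CPM in normoxia and 4.60 and 4.84 CPM in hypoxia (log2 fold change -1.06 ± 0.15, adjusted p = 5.06e-05). In each line the groups were far apart for the size of the replicate spread, in opposite order. A549 read 8.58 and 4.61 CPM against 7.36 and 6.03 CPM with overlap (log2 fold change 0.02 ± 0.33, adjusted p = 0.982). SPC25 was at 22.02 and 19.8 CPM against 8.08 and 8.86 CPM in H460 (log2 fold change -1.30 ± 0.13, adjusted p = 2.37e-06). In RKO SPC25 was at 32.4 and 28.8 CPM against 27.6 and 32.5 CPM (log2 fold change -0.03 ± 0.18, adjusted p = 0.916). In A549 SPC25 was at 15.7 and 11.04 CPM against 15.3 and 10.1 CPM (log2 fold change -0.07 ± 0.28, adjusted p = 0.924). Hypoxia was below normoxia in H460 alone. NDC80, the subunit that binds the microtubule, was at 40.05 and 38.1 CPM against 22.1 and 23.4 CPM in H460 (log2 fold change -0.78 ± 0.10, adjusted p = 1.61e-05). Its RKO values were 43.3 and 37.8 CPM against 43.5 and 42.7 CPM (log2 fold change 0.09 ± 0.16, adjusted p = 0.708). Its A549 values were 25.1 and 21.4 CPM against 23.1 and 17.3 CPM (log2 fold change -0.20 ± 0.23, adjusted p = 0.699). SPC25 and NDC80 thus fell in H460 and overlapped between conditions in the other lines. NUF2, the partner of NDC80, was called in no line and had folds of 0.17, 0.03 and 0.20 in RKO, A549 and H460, of which the H460 value turned to -0.15 with library size alone.

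CENPA, the histone that marks centromeres, was at 24.1 and 22.9 CPM against 29.5 and 24.1 CPM in RKO (log2 fold change 0.19 ± 0.18, adjusted p = 0.441). In A549 CENPA was at 37.4 and 35.9 CPM against 36.4 and 32.03 CPM (log2 fold change -0.10 ± 0.19, adjusted p = 0.835). Its H460 values were 27.1 and 23.6 CPM against 19.1 and 20.8 CPM (log2 fold change -0.34 ± 0.11, adjusted p = 0.0162). It was not called in any line, and only its H460 value passed the adjusted p. CENPF, a large protein of the outer kinetochore, was at 412 and 411 CPM against 335 and 439.7 CPM in RKO, 324 and 295 CPM against 346 and 272 CPM in A549 and 419 and 423 CPM against 373 and 433 CPM in H460. Its folds were -0.09 ± 0.17, -0.0021 ± 0.19 and -0.06 ± 0.10 with overlap in each line.

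Among the genes of the spindle, midzone and cytokinesis NUSAP1 had opposite calls in RKO and H460, and ASPM and HMMR fell in H460. NUSAP1, which bundles spindle microtubules, was at 153 and 133 CPM in normoxia and 226 and 206 CPM in hypoxia in RKO, where it rose (log2 fold change 0.60 ± 0.16, adjusted p = 0.012). It was at 135 and 126 CPM in normoxia and 75.4 and 85.4 CPM in hypoxia in H460, where it fell (log2 fold change -0.70 ± 0.09, adjusted p = 2.99e-05), and the groups were apart in both lines. The RKO call was lost without normoxia replicate 2 (0.49, adjusted p = 0.0966) and without hypoxia replicate 1 (0.56, adjusted p = 0.0379), in each case on the fold minimum. A549 read 103 and 92.9 CPM against 113 and 91.5 CPM (log2 fold change 0.06 ± 0.18, adjusted p = 0.895). ANLN (anillin), a scaffold of the contractile ring, had the highest fold of the 51 genes in A549, at 410.1 and 232 CPM in normoxia and 616 and 484 CPM in hypoxia (log2 fold change 0.78 ± 0.27, adjusted p = 0.213). Both hypoxia libraries exceeded both normoxia libraries, and replicate 2 was the lower in each condition. ANLN was called when the replicate number was entered as a block (0.82, adjusted p = 6.9e-05) and in DESeq2 (0.77, adjusted p = 0.0858). It was also called without A549 normoxia replicate 1 (1.25, adjusted p = 0.0344) and without hypoxia replicate 2 (0.94, adjusted p = 0.0204). ANLN differed by little in RKO, at 310.0 and 306 CPM against 303 and 299 CPM (log2 fold change -0.03 ± 0.15, adjusted p = 0.881). In H460 it was at 186 and 175 CPM against 174 and 193 CPM (log2 fold change 0.03 ± 0.09, adjusted p = 0.813).

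PRC1, which bundles the microtubules of the midzone, was at 184 and 179 CPM against 171 and 153 CPM in RKO (log2 fold change -0.16 ± 0.15, adjusted p = 0.417). In A549 PRC1 was at 208 and 157 CPM against 186 and 147 CPM (log2 fold change -0.13 ± 0.21, adjusted p = 0.797). The H460 values were 201 and 187 CPM against 155 and 171 CPM (log2 fold change -0.25 ± 0.09, adjusted p = 0.0252), so conditions were apart in RKO and H460 and overlapped in A549, without a call. ASPM, a protein of spindle poles, and HMMR, which helps to organize spindle poles, fell in H460 with folds of -0.62 ± 0.11 (adjusted p = 0.000285) and -0.69 ± 0.11 (adjusted p = 0.000101). Both calls were lost without hypoxia replicate 1, where the folds were -0.45 and -0.55. ECT2 and RACGAP1, which together direct RhoA to the cleavage furrow, CKAP2, which stabilizes spindle microtubules, and DLGAP5, which stabilizes kinetochore fibres, were called in no line. Of these CKAP2 (0.36 ± 0.09) and ECT2 (0.25 ± 0.09) passed the adjusted p in H460, and ECT2 turned to -0.10 when only library size was used.

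TOP2A, the topoisomerase that untangles sister chromatids, was at 264 and 236 CPM in normoxia and 397 and 320.0 CPM in hypoxia in RKO (log2 fold change 0.52 ± 0.17, adjusted p = 0.0305). The groups did not overlap there, the fold was within the minimum, and TOP2A was called higher without normoxia replicate 1 (0.60, adjusted p = 0.0644), without hypoxia replicate 2 (0.68, adjusted p = 0.0074) and with library size alone (0.60, adjusted p = 0.011). It was at 955 and 775 CPM against 979.6 and 832 CPM in A549 (log2 fold change 0.07 ± 0.19, adjusted p = 0.892). TOP2A in H460 was at 546 and 512 CPM against 519 and 613 CPM (log2 fold change 0.10 ± 0.10, adjusted p = 0.417), with overlap in both. MKI67, which encodes the Ki-67 antigen that pathologists score as a sign of proliferation, was at 453 and 423 CPM against 321 and 315 CPM in H460 (log2 fold change -0.46 ± 0.09, adjusted p = 0.000604), apart between conditions and within the fold minimum. It was at 681 and 830.1 CPM against 854 and 805 CPM in RKO (log2 fold change 0.13 ± 0.17, adjusted p = 0.565). MKI67 in A549 was at 663 and 445 CPM against 582 and 426 CPM (log2 fold change -0.14 ± 0.24, adjusted p = 0.816).

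Whether hypoxia acted differently between lines was tested as the interaction of line and condition in a joint edgeR fit of all 12 libraries, by adjusted p alone. The joint test over the 3 lines was passed by 21 of the 51 genes, beside 48.8% of all 15595 genes tested. Between RKO and A549 it differed for 4 genes (background 14.6%), namely CDC25B, CDC25C, NUSAP1 and SPC24, each higher in RKO. Between RKO and H460 it differed for 15 genes (37.6%), 12 of them higher in RKO, and between A549 and H460 for 18 (36.0%), 11 of them higher in A549. In none of these tests did the 51 genes pass more often than all genes, so a difference between lines did not set them apart. SPC24 had the widest gap, an RKO fold minus H460 fold of 2.51 ± 0.36, adjusted p = 0.000227. CENPM (2.10 ± 0.31, adjusted p = 0.000294), CENPK (1.502 ± 0.24, adjusted p = 0.000469), NUSAP1 (1.34 ± 0.20, adjusted p = 0.000329), SPC25 (1.32 ± 0.31, adjusted p = 0.00548) and CDK1 (1.01 ± 0.20, adjusted p = 0.0025) were also higher in RKO. BUB1 (-1.05 ± 0.26, adjusted p = 0.00759), KIF18A (-0.67 ± 0.21, adjusted p = 0.0301) and TTK (-0.67 ± 0.27, adjusted p = 0.0812) were higher in H460. Between A549 and H460, given as the A549 fold minus the H460 fold, genes that differed included CENPM (1.97 ± 0.31, adjusted p = 0.0006), CENPK (1.32 ± 0.24, adjusted p = 0.00132), KIF18A (-1.17 ± 0.21, adjusted p = 0.00143) and CDC25B (-1.02 ± 0.23, adjusted p = 0.0049).

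The counts depended on single libraries. Between RKO and A549 it was 1 gene without RKO normoxia replicate 1 (6.72% of all genes) or RKO hypoxia replicate 1 (8.91%), and 2 without any single H460 library (10.8% to 11.1%). It was 10 and 8 without A549 normoxia replicate 1 and 2 (18.0% and 10.4%). Between A549 and H460 it was 7 genes without H460 normoxia replicate 2 (25.3%) or hypoxia replicate 1 (22.9%) and 11 without hypoxia replicate 2 (28.2%). In the test over the 3 lines it was 12 and 11 without H460 normoxia replicate 2 and hypoxia replicate 1 (36.8% and 34.4%). Over all genes these shares were also below those with every library, apart from that without A549 normoxia replicate 1.

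Of the 4 genes that fell in RKO, CCNB1 passed the joint test over the 3 lines (adjusted p = 0.0948), and none of the 4 passed between RKO and another line. CCNB1 differed between RKO and A549 by -0.89 ± 0.32, adjusted p = 0.105, and between RKO and H460 by -0.58 ± 0.32, adjusted p = 0.203. CCNB1 did pass between RKO and A549 under RLE scaling, with no filter, in DESeq2 and without A549 normoxia replicate 1 or hypoxia replicate 2. With the replicate number as a block its values became -0.91 ± 0.17, adjusted p = 0.00659 and -0.58 ± 0.17, adjusted p = 0.0223. In the blocked fit PLK1 (-0.62 ± 0.21, adjusted p = 0.0349), CDC20 (-0.56 ± 0.15, adjusted p = 0.0143) and AURKA (-0.52 ± 0.18, adjusted p = 0.0459) also differed between RKO and H460, where without the block they had adjusted p = 0.193, 0.23 and 0.238. Between RKO and A549 the blocked fit also called PLK1 (-0.57 ± 0.20, adjusted p = 0.0793) and CDC20 (-0.46 ± 0.15, adjusted p = 0.0562). The blocked fit gave 36 genes for any lines (background 60.4%), 18 for RKO against A549 (26.9%) and 25 for RKO against H460 (45.9%). In these blocked tests the 51 genes passed more often than all genes, unlike at the reported settings. With library size alone 29 of the 51 differed between RKO and H460 (42.7% of all genes) and 8 between RKO and A549 (15.3%).

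**Figure D4:**
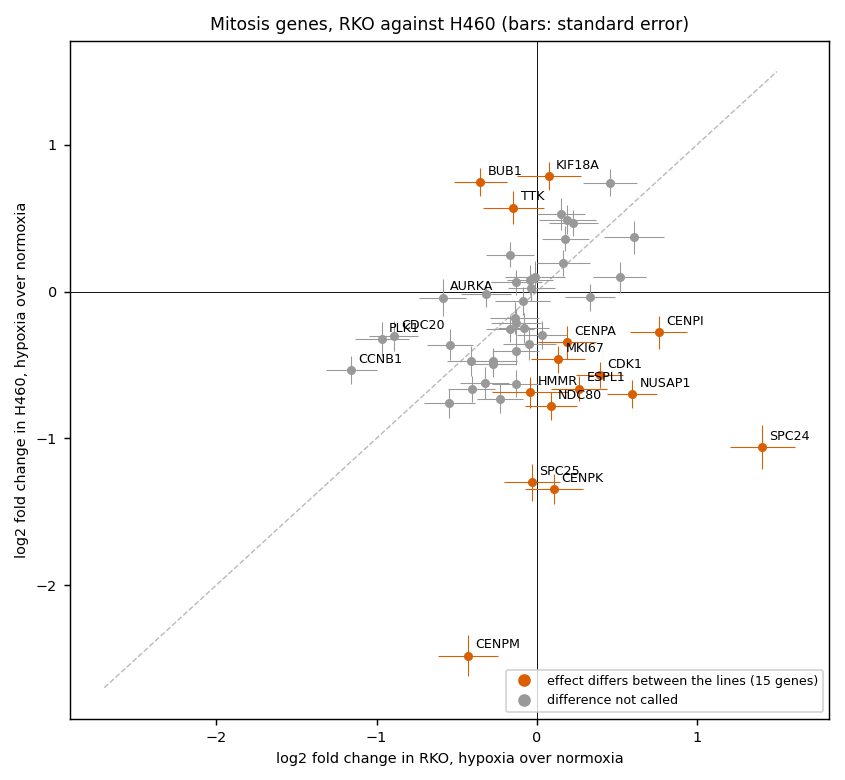
Log2 fold change in RKO (horizontal) against that in H460 (vertical) for the 51 genes, with standard errors and a dashed line of equality, where orange points are the 15 genes whose effect differed between the 2 lines. SPC24 and NUSAP1 lie right of 0 and under 0, CENPM lies lowest, and CCNB1, PLK1 and CDC20 lie left.

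No gene was called lower in all 3 lines, and at the reported settings no gene was called in the same direction in any 2 lines. A549 had 0 calls among the 51 genes, so only RKO and H460 could share one. These 2 lines had 4 and 13 genes called lower and 4 and 3 called higher. The absence of shared calls did not hold under other settings. CCNB1, CDC20 and PLK1 were lower in both RKO and H460 with library size alone and in both limma fits, and 8 genes were lower and 2 higher in both of these lines with no minimum fold. CCNB1 was lower in both without H460 normoxia replicate 2 or hypoxia replicate 2, and MAD2L1 without RKO normoxia replicate 2 or hypoxia replicate 1. UBE2C was higher in both without RKO hypoxia replicate 2, and without A549 hypoxia replicate 1 CDC20 was lower in RKO and A549 and CENPM in A549 and H460. At the reported settings 17 genes fell in at least 1 line, 7 rose in at least 1, and 29 were called in none. SPC24 and NUSAP1 were the 2 genes that rose in RKO and fell in H460. The estimate was below 0 in all 3 lines for 18 genes and above 0 in all for 3. No share over all genes was computed for these counts across lines, so they do not show whether the 51 genes stand out. Across the 51 genes the fold changes of RKO and A549 had a Pearson r of 0.281, those of RKO and H460 0.117, and those of A549 and H460 0.132, while over the 11873 genes tested in all lines the values were 0.495, 0.452 and 0.559. These lines share no libraries, genes are not independent replicates, and the values are descriptions.

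Levels in normoxia also differed between lines for some of the 51 genes, on the RPKM scale that corrects for gene length. TOP2A was the highest of the 51 in A549, at 147 ± 21.1 RPKM (SD, n = 2), and in H460, at 99.7 ± 4.56, and stood at 39.8 ± 3.07 in RKO. BUB3 led in RKO at 122 ± 6.75 RPKM, against 65.1 ± 5.98 in A549 and 94.3 ± 6.04 in H460. CDC20 (107 ± 1.11) and CCNB1 (97.6 ± 11.1) came next in RKO, and lay within their spread of each other. HMMR was the lowest of the 51 in RKO at 3.34 ± 0.320 RPKM and was far higher in A549, at 28.6 ± 1.88, and in H460, at 25.3 ± 1.59. CDC25B ran at 14.7 ± 3.40 in RKO, 86.4 ± 9.07 in A549 and 47.9 ± 4.55 in H460. KIF18A was at 4.72 ± 0.532, 14.8 ± 0.0711 and 14.3 ± 0.726, in RKO, A549 and H460, of which the last pair lay within their spread. MAD2L1 was highest in RKO, where its libraries were at 100.3 and 83.4 RPKM, and had 30.2 ± 6.55 in A549 and 39.2 ± 2.88 in H460.

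Between lines in normoxia, called at the same adjusted p and fold, 10 of the 51 genes were higher in RKO than in A549 (26.0% of all genes) and 7 were lower (34.1%). Against H460, 8 were higher in RKO (27.2%) and 11 lower (34.7%). A549 was higher than H460 for 5 (26.9%) and lower for 9 (25.2%). In each of these comparisons the share of the 51 genes was below that of all genes. The RKO minus A549 log2 difference was -3.10 ± 0.18, adjusted p = 1.19e-09 for HMMR, -2.55 ± 0.17, adjusted p = 5.89e-09 for CDC25B, -1.89 ± 0.17, adjusted p = 1.84e-07 for TOP2A and 1.604 ± 0.18, adjusted p = 2.18e-06 for MAD2L1. So HMMR, CDC25B and TOP2A were lower and MAD2L1 was higher in RKO. The corresponding RKO minus H460 differences were -2.92 ± 0.18, adjusted p = 2.23e-09, -1.70 ± 0.16, adjusted p = 3.86e-07, -1.33 ± 0.17, adjusted p = 6.09e-06 and 1.23 ± 0.18, adjusted p = 2.81e-05, in the same directions.

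Other cell cycle genes were read from 3 further lists. Of 99 other mitosis genes 12 fell and 5 rose in RKO (12.1% and 5.05%) and 42 fell and 9 rose in H460 (42.4% and 9.09%), with medians of -0.16 in RKO, -0.20 in A549 and -0.46 in H460. The ends of this list in RKO were the cohesin subunit STAG1 (-1.04 ± 0.15) and the spindle protein CKAP2L (1.10 ± 0.19), and in H460 the phosphatase CDC25A (-3.46 ± 0.15) and the APC/C activator FZR1 (1.12 ± 0.10). Beside these, 15.1% and 18.8% of all genes were called lower and higher in RKO and 27.3% and 24.6% in H460. Of 49 DNA replication genes 17 fell in RKO (34.7%), and 40 fell and 1, RFC1, rose in H460 (81.6% and 2.04%). Their medians were -0.37, -0.30 and -1.66. The A549 median of this list ran from -0.67 without hypoxia replicate 1 to -0.09 without normoxia replicate 1 and -0.04 without hypoxia replicate 2, and that of the other mitosis genes from -0.33 to -0.06. MCM10, which helps to activate the replicative helicase, was lowest in H460, at 34.97 and 38.9 CPM against 2.14 and 2.58 CPM (log2 fold change -3.96 ± 0.15, adjusted p = 1.75e-09). GINS3, a part of that helicase, was lowest in RKO, at 40.3 and 40.05 CPM against 12.3 and 18.6 CPM (log2 fold change -1.38 ± 0.21, adjusted p = 0.000833). With every library in the fit, the median of the DNA replication genes was below that of the 51 mitosis genes in each line.

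Of 26 regulators 1 fell and 5 rose in RKO (3.85% and 19.2%) and 14 fell and 6 rose in H460 (53.8% and 23.1%). The share that rose in RKO was near that of all genes (18.8%). The 6 in H460 include CDKN1C, which passed the filter there through hypoxia alone. At over 1 CPM in a whole group 25 regulators were tested in H460. Of these 14 fell and 5 rose, beside 27.1% and 24.6% of all genes. FOXM1, a transcription factor of mitosis genes, was at 89.1 and 80.97 CPM against 44.6 and 47.7 CPM in H460, where it fell (log2 fold change -0.88 ± 0.09, adjusted p = 4.27e-06). MYBL2, which encodes B-MYB, was at 109 and 114 CPM against 26.1 and 31.8 CPM (log2 fold change -1.94 ± 0.11, adjusted p = 2.22e-08), also a fall. In RKO FOXM1 (-0.11 ± 0.17) and MYBL2 (-0.28 ± 0.14) were not called, nor in A549 (-0.39 ± 0.21 and -0.41 ± 0.24). CDKN1A (p21), an inhibitor of cyclin-dependent kinases, rose in H460 from 44.5 and 36.2 CPM to 165 and 136 CPM (log2 fold change 1.90 ± 0.12, adjusted p = 7.51e-08). It also rose in RKO, from 161 and 137 CPM to 222 and 238 CPM (log2 fold change 0.63 ± 0.16, adjusted p = 0.00971). CDKN1A stood at 236 and 142 CPM against 168 and 177 CPM in A549 (log2 fold change -0.13 ± 0.24, adjusted p = 0.818). E2F1, a factor of the S phase program, was the lowest regulator in H460 (log2 fold change -3.76 ± 0.12, adjusted p = 9.33e-10). E2F4 was the lowest in RKO (-0.99 ± 0.15). CDKN1C, which encodes another inhibitor of these kinases, was the highest in RKO, at 3.49 and 1.76 CPM against 12.8 and 6.85 CPM (1.91 ± 0.39). In H460 it was at 0.0654 and 0.108 CPM against 0.766 and 0.574 CPM, so that it passed the filter through the hypoxia libraries alone, and no fold is given. In A549 edgeR called 0 genes of these 3 lists, and DESeq2 called 1 regulator lower and none of the other genes. At an unadjusted p under 0.05 there were 4 lower for the other mitosis genes, 6 lower for the DNA replication genes, and 2 lower and 2 higher for the regulators, against 6.83% lower and 9.75% higher over all genes. The joint fit gave 2 lower, 3 lower, and 1 lower and 2 higher, against 2.82% lower and 6.14% higher over all genes. With the replicate number as a block A549 gave 4 lower for other mitosis genes, 5 lower for DNA replication genes, and 3 lower and 2 higher for regulators, against 5.07% lower and 8.34% higher over all genes. Without A549 hypoxia replicate 1 there were 12 lower, 19 lower, and 4 lower and 2 higher in the same order, against 5.34% and 7.70% over all genes. What part the share of cycling cells has in these lists was not tested.

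**Figure D5:**
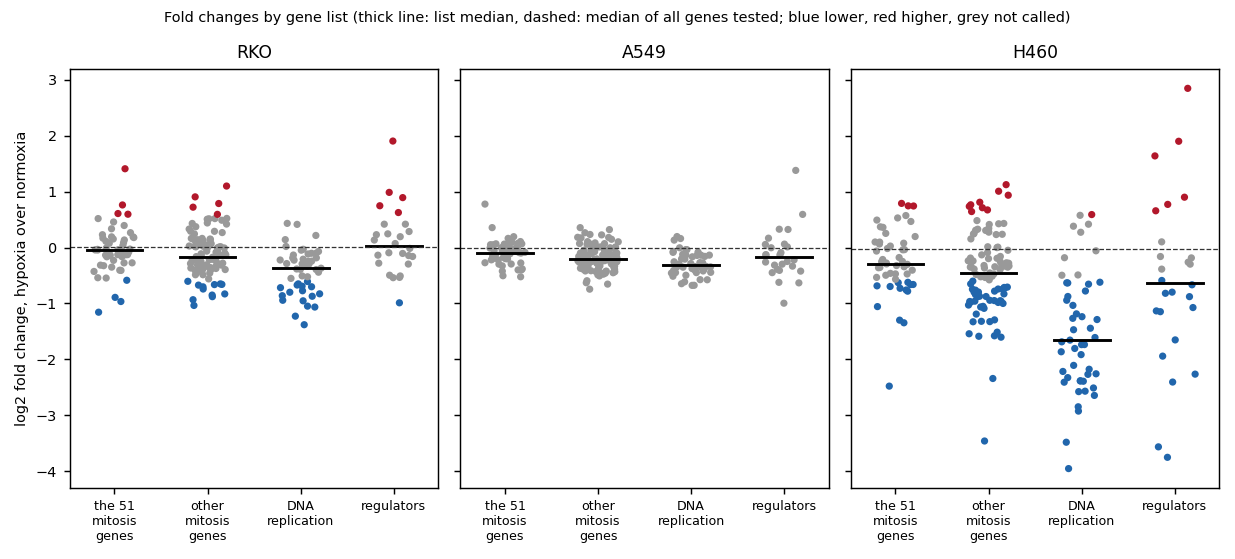
Log2 fold change of hypoxia over normoxia for the 51 mitosis genes, 99 other mitosis genes, 49 DNA replication genes and 26 regulators in each line, one point a gene, with a thick line at each list's median and a dashed line at the median of all genes tested. In H460 the medians are -0.29, -0.46, -1.66 and -0.63.

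The promoter letters were also counted by call. A CHR or its variant stood in a window of 9 of the 12 genes with an entry that fell in H460, in 2 of 2 that rose, and in 21 of 29 that were not called. In RKO it was found for 2 of 3 that fell, 2 of 4 that rose and 28 of 36 that were not called.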

How the data were processed

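Single-end 150 bp reads of strand-specific poly(A) libraries were trimmed at 3′ ends, aligned to GRCh37 (hg19) with TopHat2 2.0.13 and Bowtie2 2.2.3.0, filtered at a mapping quality of 10 with SAMtools 1.3.1, marked for duplicates with Picard 1.129 and counted over exons by strand with HTSeq 0.6.1, all by the authors. The authors deposited whole-number counts per gene and RPKM, which equal the counts divided by gene length and by the library's counted reads. The counts of 12 libraries, in 6 groups of 2, were tested here, and 0 columns were left unmatched. Start positions were shifted to count from 1.

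A line's genes were tested where 2 or more of its 4 libraries exceeded 0.5 CPM, with edgeR 4.0.16 (R 4.3.3), TMM factors and the quasi-likelihood test. Calls needed a Benjamini-Hochberg adjusted p under 0.1 over all genes tested and a fold change over 1.5. Differences between lines came from a joint fit of 12 libraries, by adjusted p for interactions and with the fold minimum for normoxia. Each ± after a log2 value is the standard error of the fit. The tests were checked on simulated counts with few changed genes and independent replicates. The wide shift of H460 and the shared replicate gaps of A549 were not simulated, so the check does not cover them. The 51 genes, the other lists and their roles were chosen with earlier results of these data known. All 51 genes were named, with values per library for 21 chosen by role, for the 3 lowest and 3 highest fold changes in each line and for the 3 smallest interaction p-values of each pair of lines.

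The libraries are biological duplicates per the study's methods, and where nothing says more, p-values measure only the spread between these samples. Replicates differed by far more than counting noise (chi-square per degree of freedom 9.60 to 72.0 over genes), so none was merged. Over all genes the deviations of same-numbered libraries correlated at 0.370 in RKO, 0.393 in A549 and 0.172 in H460. A fit with the replicate number as a block was therefore run as an alternative. The labels do not say what same-numbered libraries share, and the reported calls come from fits without the block. The median standard error of a member's fold change was 0.158, 0.217 and 0.0968. Close copies could have split few reads, since KIF4B and PTTG2 had at most 3 and 7 counts in a library. Alternatives were RLE scaling, library size alone, 2 other filters, DESeq2 1.42.0, limma 3.58.1 on log2(RPKM + 0.1) or log2(RPKM + 1), the joint fit, other thresholds, the block, and each library left out. Promoter windows are RefSeq's, on GRCh38.p14, and were matched by symbol.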

Additional observations from a re-analysis of the deposited data

Results flagged for a closer look

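The log2 fold change in hypoxia differed between lines for 21 of the 51 mitosis genes in the joint edgeR test over the 3 lines. Pair by pair it differed between RKO and A549 for 4, RKO and H460 for 15 and A549 and H460 for 18. Over all genes the shares were 48.8%, 14.6%, 37.6% and 36.0%, in the same order. At the reported settings no share of the 51 genes was above that of all genes. The genes listed here passed for at least 1 pair. Among them CENPA, MKI67, UBE2C and KIF2C did not pass the joint test, while CCNB1 passed that test but no pair. Each value below is the fold change of the first line minus that of the second, for the pair of lines with the widest gap among those that passed. For RKO minus H460 it was 1.01 for CDK1, -1.05 for BUB1, -0.67 for TTK, 0.97 for ESPL1, 0.58 for CENPA, 1.08 for CENPI, 1.502 for CENPK, 2.10 for CENPM, 0.91 for NDC80, 2.51 for SPC24, 1.32 for SPC25, 1.34 for NUSAP1 and 0.64 for MKI67. For A549 minus H460 it was -1.02 for CDC25B, 0.71 for MAD2L1, -0.90 for UBE2C, -1.17 for KIF18A, -0.56 for KIF2C, 0.58 for KIF4A, 0.70 for ASPM, 0.75 for ANLN, -0.55 for ECT2 and 0.85 for HMMR. For RKO minus A549 it was 0.66 for CDC25C.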

How the results depend on the processing

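Of 1989 values of single genes under other settings 1887 kept their side of the threshold, 75 gained a call, 27 lost one and 0 changed direction while called. Among the 1887 the sign of 175 values that were not called changed (50 in RKO, 91 in A549 and 34 in H460), so the direction of a gene that was not called is not firm. In RKO the counts of genes that fell and rose were 9 and 7 with no minimum fold and 1 and 1 at a fold over 2, and 3 to 6 and 2 to 6 with a library left out. The RKO median was 0.0364 with library size alone, 0.0283 and 0.0261 with limma (pseudocounts 0.1 and 1), 0.0166 in the joint fit, and -0.11 to 2.49e-05 with a library left out. In A549 1 gene rose with no filter, in DESeq2, with the replicate block and in the joint fit, and with a library left out 0 to 2 fell and 0 to 2 rose. In H460 29 fell with library size alone, 29 and 28 with limma, 30 with no minimum fold, 4 at a fold over 2 and 10 to 15 with a library left out. The number that rose in H460 was 0 with library size alone and in both limma fits, 11 with no minimum fold, 0 at a fold over 2 and 3 to 5 with a library left out. Neither library size nor limma on RPKM applies a TMM factor, and the H460 median under them was -0.645, -0.641 and -0.595. Interactions of any lines numbered 36 with the replicate block, 13 at an adjusted p under 0.05 and 11 to 28 with a library left out. Between RKO and A549 they numbered 8 with library size alone and in both limma fits, 7 with no filter, 18 with the block, 1 at an adjusted p under 0.05 and 1 to 10 with a library left out. Between RKO and H460 they numbered 29, 29 and 28 with library size and limma and 25 with the block. Between A549 and H460 they numbered 11 at an adjusted p under 0.05 and 7 to 23 with a library left out. Normoxia differences numbered 28, 31 and 27 with no minimum fold and 9, 10 and 2 at a fold over 2, for RKO against A549, RKO against H460 and A549 against H460. Beyond ANLN in A549 and the interactions, the block changed no other call of the 51 genes. Where a call was lost or gained the cause was not tested, apart from the thresholds, which act by construction. With 2 libraries a group, small effects in A549 could not be seen at its standard errors. With 1 library left out of a group, the lone library is assumed to vary like the other group.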
